A study of Mus musculus with 11 samples.

Results

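The tissue inhibitors of metalloproteinases and a set of matrix proteases were described in single cells of the brain vasculature of CADASIL mice. The set held 10 of the 32287 genes in the count tables, picked by symbol: Timp1, Timp2, Timp3 and Timp4, the matrix metalloproteinases Mmp2, Mmp9 and Mmp14, and the proteoglycan-cleaving enzymes Adamts1, Adamts4 and Adamts9. CADASIL is a hereditary small vessel disease of the brain caused by variants of NOTCH3, a receptor of the mural cells that wrap vessels. R182C-TgN3 mice (6 animals, line Tg350) express human NOTCH3 bearing the R182C variant from a transgene. WT-TgN3 mice (5 animals, line Tg100) express the unaltered human gene from a transgene. Both groups thus express human NOTCH3 beside mouse Notch3, and they differ in line and in transgene level as well as in variant. All mice were untreated, and cells came from digested brain vessel fragments that had been captured with CD31 antibody, an endothelial marker, so the yield of mural and perivascular cells depended on their attachment. R182C-TgN3 mice 1 to 3 and WT-TgN3 mice 4 and 5 were 9 months old, and R182C-TgN3 mice 4 to 6 and WT-TgN3 mice 1 to 3 were 6 months old. Both sexes were used: R182C-TgN3 2 and 4 and WT-TgN3 2 and 4 were male, and the other mice were female. The labels give 4 batch dates, each of 1 age, so age and batch cannot be told apart. Batch 1 held R182C-TgN3 1 and 2 with WT-TgN3 4 and 5, batch 2 held R182C-TgN3 3 alone, batch 3 held R182C-TgN3 4 and 5 with WT-TgN3 1 and 2, and batch 4 held R182C-TgN3 6 with WT-TgN3 3.

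Timps are small secreted proteins that occupy the active site of metalloproteinases. Timp3 is held in the extracellular matrix, inhibits ADAM and ADAMTS enzymes as well as MMPs, and its protein is known to gather in CADASIL vessels. Timp2 has a second role, since together with the membrane protease Mmp14 it helps to activate the gelatinase Mmp2. Mmp9 is the other gelatinase, known from neutrophils and macrophages. Adamts1, Adamts4 and Adamts9 are secreted enzymes that cut versican and related proteoglycans.

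The libraries held 17550806 to 64215050 unique molecular identifiers (UMIs), each standing for 1 captured transcript. Of 66658 barcodes, 61625 passed the filters and 55433 were assigned to a class by marker genes, none of which is a member of the set. This gave 35477 endothelial cells (EC), of which 16620 were capillary, 2214 arterial, 2133 venous and 1282 fenestrated. The other 13228 EC were given no subtype. There were 2449 smooth muscle cells (SMC), 648 pericytes, 118 fibroblasts and 14735 microglia. Fibroblasts reached 10 cells in only 5 mice (R182C-TgN3 2, 5 and 6 and WT-TgN3 1 and 4), so fibroblast values rest on these. Levels are UMIs of a gene relative to all UMIs summed over the cells of a type in 1 mouse, scaled to a total of 1000000 (CPM), and they are compared between cell types and mice, not between genes. Endothelial markers summed to 6002 CPM in the pericyte pools against 21873 CPM in capillary EC, so the pericyte pools held endothelial RNA. The libraries also shared 966 barcode sequences, most of them among 6-month mice (350 between R182C-TgN3 4 and 5). Without the shared barcodes, 0 of 47 genotype differences of members changed sign, and the mean level of Timp3 in fenestrated EC was 2679 CPM in place of 2684.

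As a check of the labels, human NOTCH3 ranged from 130.5 to 286 CPM in SMC of R182C-TgN3 mice and from 12.9 to 57.9 CPM in those of WT-TgN3 mice, with no overlap. The log2 difference was 2.42 in SMC (edgeR adjusted p = 0.00646) and 1.58 in pericytes (edgeR adjusted p = 2.49e-05). Variant, line and transgene level therefore cannot be told apart in the genotype comparisons. Mouse Notch3 in SMC differed by -0.13 ± 0.12 (SE) on the log2 scale.

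On the mm10 (GRCm38) build, the 4 Timp genes lie at chrX:20870166-20874735, chr11:118301069-118355740 (minus strand), chr10:86300372-86349506 and chr6:115241892-115252205 (minus strand). Timp1, Timp3 and Timp4 each lie inside a synapsin gene on the opposite strand, namely Syn1, Syn3 and Syn2. Timp3 and Timp4 overlap annotated exons of their synapsin gene. Adamts1 lies at chr16:85793827-85803113 and Adamts9 at chr6:92772699-92943492, both on the minus strand, and Adamts4 at chr1:171250421-171260637. Mmp2 lies at chr8:92827291-92853420, Mmp9 at chr2:164940780-164955850 and Mmp14 at chr14:54431612-54445364. RefSeq promoters were matched for 7 of the 10 members, all but Mmp2, Mmp9 and Adamts4.
The bases before the start site are printed for Timp3, whose transcript was found in every vessel wall type, and for Timp4, which of the 8 compared types was highest in SMC, with each CG pair in capitals. For Adamts1, which was found in all 8 cell types, capitals mark GGGCGG and TATAAA.
Timp3, 210 bases, chr10:86300162-86300371, plus strand: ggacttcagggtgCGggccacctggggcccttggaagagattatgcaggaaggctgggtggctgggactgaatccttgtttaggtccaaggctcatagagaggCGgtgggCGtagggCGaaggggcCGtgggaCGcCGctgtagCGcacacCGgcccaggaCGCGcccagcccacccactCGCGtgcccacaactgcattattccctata
Timp4, 250 bases, chr6:115252206-115252455, minus strand: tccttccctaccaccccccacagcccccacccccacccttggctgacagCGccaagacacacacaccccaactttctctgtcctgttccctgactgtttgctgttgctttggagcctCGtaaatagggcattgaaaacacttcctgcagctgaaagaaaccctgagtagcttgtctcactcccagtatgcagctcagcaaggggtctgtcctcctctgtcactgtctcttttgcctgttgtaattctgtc
Adamts1, 250 bases, chr16:85803114-85803363, minus strand: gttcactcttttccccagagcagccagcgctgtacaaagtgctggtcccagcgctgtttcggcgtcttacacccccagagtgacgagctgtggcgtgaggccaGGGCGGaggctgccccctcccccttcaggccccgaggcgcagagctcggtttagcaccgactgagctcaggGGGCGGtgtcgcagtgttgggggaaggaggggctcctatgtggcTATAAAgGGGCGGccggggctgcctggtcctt

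Over the full 250 bases before the RefSeq start, Timp3 held 18 CG pairs, more than 78.3% of the 32851 promoters in the table, and Timp4 held 2, more than 18.8%. Adamts9 held 22, Timp2 21, Adamts1 15, Mmp14 10 and Timp1 6. GGGCGG, searched on both strands, was found 3 times in Adamts1, 2 times in Mmp14, 1 time each in Timp1, Timp2, Timp3 and Adamts9, and not in Timp4, against 32.7% of all promoters. The Timp3 match lies in the 40 bases not printed, which GENCODE counts to the transcript. All 250 bases of Timp2 (chr11:118355412-118355661) lie inside the gene by GENCODE, which places it up to position 118355740. TATAAA was found in Adamts1 alone, beginning 32 bases before the start, against 12.4% of all promoters. TGGGAA was found in Timp1 alone (21.6% of all promoters) and TGANTCA in 0 of the 7 (6.75%).

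Timp3 transcripts were abundant in arterial and fenestrated endothelium, in SMC and in fibroblasts, lower in capillaries, pericytes and venous EC, and lowest of the 8 types in microglia. In fenestrated EC, the lowest, median and highest R182C-TgN3 mice had 2162, 2613 and 3884 CPM, and WT-TgN3 mice 1 to 5 had 2820.5, 2384, 2764, 2698 and 2483 CPM. The groups overlapped, and R182C-TgN3 3 stood above all other mice. Over all mice the level was 2684 ± 449 CPM (SD, n = 11) in fenestrated EC and 2103 ± 299 CPM (SD, n = 11) in arterial EC, higher in the fenestrated cells of 9 of 11 mice (exact paired permutation test, adjusted p = 0.021). All p-values of this kind are 2-sided sign-flip tests of log2(CPM + 1) between neighbours in the order of levels, adjusted over 70 neighbour pairs of the 10 members. Fibroblasts had 1673 ± 312 CPM (SD, n = 5), and their rank between arterial EC and SMC was not resolved, since 5 mice cannot go below an exact p of 0.0625. SMC had 1360.4 ± 159.6 CPM (SD, n = 11) and stood above capillary EC, at 439 ± 92.6 CPM (SD, n = 11), in 11 of 11 mice (exact test, adjusted p = 0.00621). Pericytes, at 438 ± 226 CPM (SD, n = 11), did not differ beyond their spread from capillary EC (exact test, adjusted p = 0.696) or from venous EC, at 199 ± 66.2 CPM (SD, n = 11) (exact test, adjusted p = 0.15).

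Timp3 varied widely between the pericyte pools. R182C-TgN3 mice 1 to 6 had 406, 539, 451, 408, 104 and 585 CPM, and WT-TgN3 mice 1 to 5 had 487, 308, 622, 848 and 60.7 CPM. The low pools were those of R182C-TgN3 5, with 31 cells, and WT-TgN3 5, with 20 cells. Endothelial markers in the pericyte pools were 27.4% of their capillary level. Across the 11 pools they gave a Pearson r of 0.31 with Timp3 (permutation p = 0.353, adjusted over 3 members 0.353) and a Spearman rho of 0.32 (permutation p = 0.343, adjusted 0.343). Without the 2 pools farthest from the median, r was -0.07, and in the 6 mice of 6 months it was -0.15. For Adamts1 in the same pools r was 0.37 (permutation p = 0.26, adjusted 0.353) and rho 0.59 (permutation p = 0.0604, adjusted 0.181), with r = 0.49 without the 2 farthest pools and 0.43 at 6 months. For Mmp14 r was -0.38 (permutation p = 0.242, adjusted 0.353) and rho -0.43 (permutation p = 0.193, adjusted 0.289), with r = -0.39 and -0.71. No value was taken in the 5 mice of 9 months or within batches, which held at most 4 mice.

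The share of cells with a Timp3 UMI gave a like picture. When each cell was thinned to 2000 UMIs, 96.7% ± 1.48 (SD, n = 11) of fenestrated EC, 86.6% of arterial EC, 86.6% of fibroblasts and 84.0% of SMC had a UMI of Timp3. The share was 47.0% in capillary EC, 26.5% in pericytes and 24.8% in venous EC. Microglia had 2.47%, between the 0.942% of T or NK cells and the 3.95% of B cells, taken here as types that should lack Timp3. The median depth was 5096 UMIs in microglia, 5096.5 in T or NK cells and 3773 in B cells. The microglial level of 36.1 ± 12.8 CPM (SD, n = 11) likewise lay between the 8.88 ± 16.8 CPM (SD, n = 9) of T or NK cells and the 94.4 ± 114 CPM (SD, n = 10) of B cells, so expression in microglia was not told apart from RNA of other cells. Pooled over mice, Timp3 had 569 CPM in 338 cells gated as erythroid and 204 CPM in 16 neutrophils or monocytes. It had 15.9 CPM in 107 perivascular macrophages. The erythroid level lay above those of capillary EC, pericytes and venous EC. How much of these lower vessel levels was RNA of other cells was not tested. Unthinned shares were 98.9% in fenestrated EC, 96.1% in SMC and 4.90% in microglia.

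Timp2 had another order, with microglia at the top of the 8 types. R182C-TgN3 microglia had a lowest, median and highest level of 264, 321 and 349 CPM, and WT-TgN3 mice 1 to 5 had 302, 254, 322, 273 and 303 CPM. The 11 libraries spanned a narrow range in which the genotypes overlapped. Microglia reached 304 ± 29.4 CPM (SD, n = 11), fibroblasts 195 ± 54.1 CPM (SD, n = 5) and SMC 168 ± 16.8 CPM (SD, n = 11). Arterial EC, at 146 ± 33.5 CPM (SD, n = 11), were slightly below SMC in 9 of 11 mice (exact test, adjusted p = 0.0396) and above pericytes in 11 of 11 (exact test, adjusted p = 0.00621). SMC markers summed to 36.5 CPM in the arterial pools against 29960.2 CPM in SMC. The gate itself used these markers, and the part of SMC RNA in the arterial level was not tested. Pericytes had 23.6 ± 9.03 CPM (SD, n = 11), venous EC 17.5 ± 5.98 CPM (SD, n = 11), capillary EC 9.26 ± 2.25 CPM (SD, n = 11) and fenestrated EC 7.73 ± 6.36 CPM (SD, n = 11). The last 2 were close to the 7.52 ± 8.97 CPM (SD, n = 10) of B cells. Pooled over mice, T or NK cells had 31.0 CPM (95% Poisson interval 22.1 to 42.2, counting error only). The means of pericytes, venous EC, capillary EC and fenestrated EC all lay below this level. Capillary and fenestrated EC did not differ beyond their spread (exact test, adjusted p = 0.244). Outside the 8 types and pooled over mice, Timp2 had 328 CPM (95% Poisson interval 280.2 to 383, counting error only) in 107 perivascular macrophages and 319.9 CPM (301 to 339) in 246 choroid plexus epithelial cells.

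Timp4 was an SMC transcript among the vessel types. R182C-TgN3 SMC had a lowest, median and highest level of 8.35, 13.7 and 24.0 CPM, and WT-TgN3 mice 1 to 5 had 11.9, 3.88, 38.0, 10.99 and 19.8 CPM, so the WT-TgN3 mice covered the whole R182C-TgN3 range. The mean was 15.4 ± 9.27 CPM (SD, n = 11) from 297 UMIs, above arterial EC, at 2.10 ± 1.72 CPM (SD, n = 11), in 11 of 11 mice (exact test, adjusted p = 0.00621). Only 2.31% of SMC had a UMI after thinning (6.70% unthinned), against 0.0257% of B cells. In pericytes 0 UMIs were counted, which allows a level of up to 0.873 CPM by counting error alone. Timp1, the Timp best known as induced in injury, was low in each type. It had 70 UMIs and 2.49 ± 1.71 CPM (SD, n = 11) in venous EC and 10 UMIs and 5.81 ± 6.97 CPM (SD, n = 5) in fibroblasts, where 2 of 5 mice had 0.

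**Figure D1:**
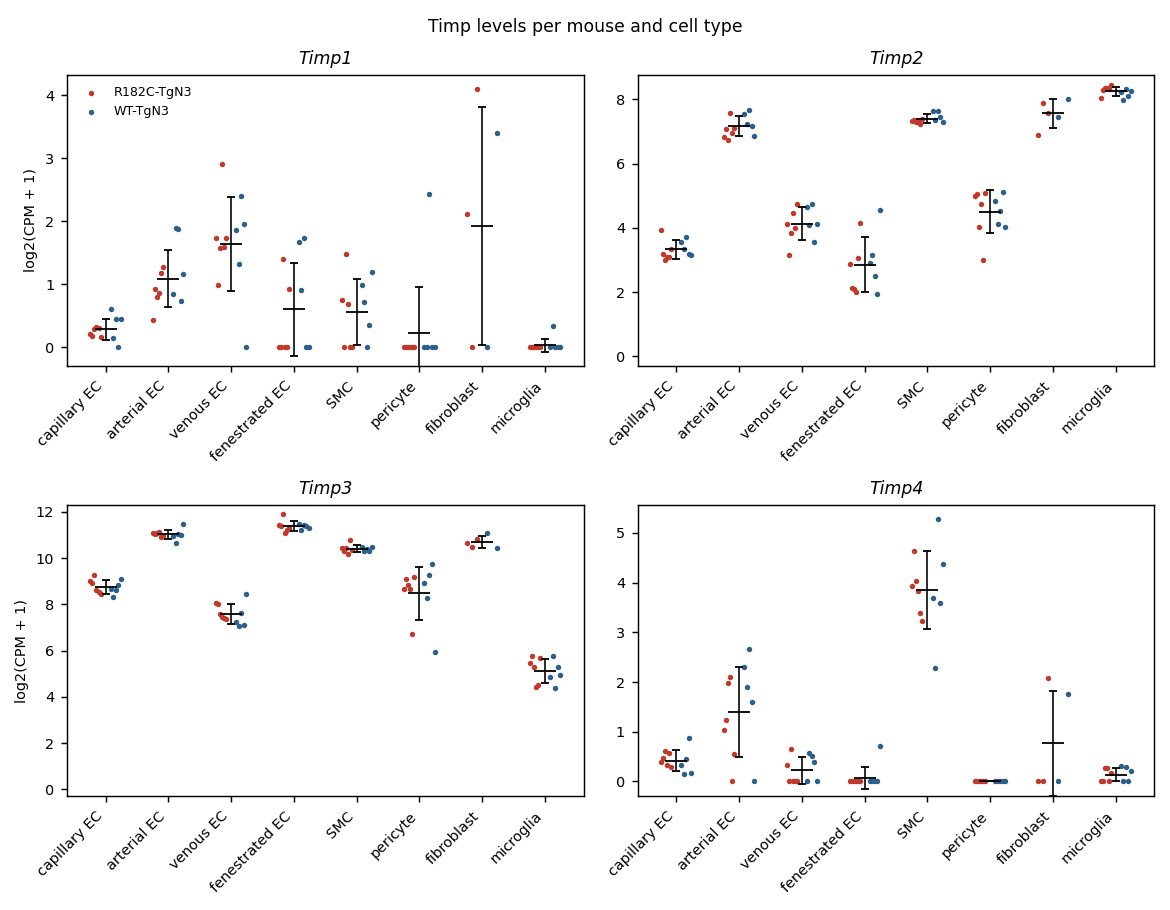
Level of each Timp on the log2(CPM + 1) scale (y, with its own range in each panel) by cell type (x), 1 point per mouse, red for R182C-TgN3 and blue for WT-TgN3, with a black bar and whiskers for the mean and SD of that scale over all mice with at least 10 cells (11, fibroblasts 5). Timp3 is high in fenestrated and arterial EC, SMC and fibroblasts, Timp2 is highest in microglia, Timp4 stands out in SMC, and the genotypes overlap in each of these types.

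Mmp14 and Mmp2 were highest in fibroblasts, and Mmp9 was scarcely detected. Mmp14, the membrane protease that activates Mmp2, had 206 ± 37.9 CPM (SD, n = 5) in fibroblasts and 61.4 ± 24.9 CPM (SD, n = 11) in pericytes. It was lower in SMC, at 19.5 ± 3.497 CPM (SD, n = 11), than in pericytes of 11 of 11 mice (exact test, adjusted p = 0.00621). SMC were above microglia, at 14.7 ± 2.82 CPM (SD, n = 11), in 10 of 11 mice (exact test, adjusted p = 0.0273). Arterial EC, at 3.74 ± 2.05 CPM (SD, n = 11), were below microglia in 11 of 11 mice (exact test, adjusted p = 0.00621). Capillary, venous and fenestrated EC had 0.54, 0.523 and 0.482 CPM, against 1.01 CPM in B cells. After thinning, 34.0% of fibroblasts, 12.6% of pericytes, 3.64% of SMC and 0.189% of B cells had a UMI.

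Mmp2, the gelatinase, was found in fibroblasts and, at a lower level, in microglia. Fibroblasts of R182C-TgN3 2, 5 and 6 had 33.4, 44.8 and 54.9 CPM, and those of WT-TgN3 1 and 4 had 84.2 and 64.6 CPM. The groups did not overlap, with a log2 difference of -0.65 ± 0.40 (SE) between R182C-TgN3 and WT-TgN3 (edgeR unadjusted p = 0.1247, adjusted p = 1.00), where 0% of all genes tested in fibroblasts passed the threshold and the groups of 17.5% of all genes with a mean of at least 10 CPM did not overlap. These pools together held 74 UMIs of Mmp2. Microglia had 10.2 ± 1.93 CPM (SD, n = 11) from 850 UMIs, above arterial EC, at 1.64 ± 1.31 CPM (SD, n = 11), in 11 of 11 mice (exact test, adjusted p = 0.00621). B cells, T or NK cells and perivascular macrophages had 0 UMIs of Mmp2. The stricter gate gave 29.7 CPM in fibroblasts, from fewer mice. Mmp9 had 0 UMIs in arterial EC, fenestrated EC, pericytes and fibroblasts, and 9 UMIs in all SMC. For arterial EC a count of 0 allows up to 0.149 CPM.

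Of the ADAMTS proteases, Adamts1 was present in all 8 cell types and Adamts9 and Adamts4 in fewer. Adamts1, which cleaves versican and is known to be induced quickly by stimuli, had 559.6 ± 236 CPM (SD, n = 11) in arterial EC and 492 ± 121 CPM (SD, n = 11) in SMC. These did not differ beyond their spread (higher in arterial EC of 5 of 11 mice, exact test, adjusted p = 0.694). SMC stood above microglia, at 364 ± 92.5 CPM (SD, n = 11), in 10 of 11 mice (exact test, adjusted p = 0.0273). Fenestrated EC had 274 ± 99.97 CPM (SD, n = 11), fibroblasts 219 ± 77.4 CPM (SD, n = 5), venous EC 207 ± 73.1 CPM (SD, n = 11) and capillary EC 182.5 ± 54.2 CPM (SD, n = 11), with no step between these neighbours past the threshold. Pericytes were lowest, at 107 ± 58.8 CPM (SD, n = 11), and below capillary EC in 9 of 11 mice (exact test, adjusted p = 0.038). B cells had 31.1 ± 39.7 CPM (SD, n = 10). Pooled over mice, T or NK cells had 10.1 CPM and cells gated as erythroid had 230 CPM. The erythroid level lay above the means of fibroblasts, venous EC, capillary EC and pericytes. How much of these lower levels was RNA of other cells was not tested. After thinning, 47.8% of arterial EC, 46.5% of SMC, 20.8% of microglia and 2.23% of B cells had a UMI.

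Adamts9 was highest in fenestrated EC, the same type as Timp3. R182C-TgN3 mice had a lowest, median and highest level of 177, 284 and 356 CPM there, and WT-TgN3 mice 1 to 5 had 312, 142, 394, 82.8 and 292 CPM. The lowest and the highest values were both from WT-TgN3 mice. The mean was 258 ± 94.6 CPM (SD, n = 11), followed by fibroblasts (144 ± 52.1 CPM, n = 5), venous EC (74.0 ± 36.8 CPM) and arterial EC (60.6 ± 27.5 CPM). Arterial EC stood above SMC, at 25.8 ± 8.90 CPM (SD, n = 11), in 11 of 11 mice (exact test, adjusted p = 0.00621). Pericytes and capillary EC had 24.7 and 22.9 CPM, and microglia, at 2.03 ± 1.66 CPM (SD, n = 11), were below capillary EC in 11 of 11 mice (exact test, adjusted p = 0.00621) and below B cells, at 6.28 CPM. Pooled over mice, T or NK cells had 0 UMIs of Adamts9 and cells gated as erythroid had 40.5 CPM. The erythroid level lay above the means of SMC, pericytes and capillary EC. Adamts4 had 29.5 ± 10.1 CPM (SD, n = 11) in SMC and 30.2 ± 18.9 CPM (SD, n = 5) in fibroblasts, where the stricter gate gave 7.42 CPM from fewer mice. Fibroblasts and SMC did not differ beyond their spread, and SMC were the highest type under 4 of 6 other gates or filters. SMC stood above venous EC, at 7.22 ± 4.49 CPM (SD, n = 11), in 11 of 11 mice (exact test, adjusted p = 0.00621). Microglia had 12 UMIs of Adamts4 in all.

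**Figure D2:**
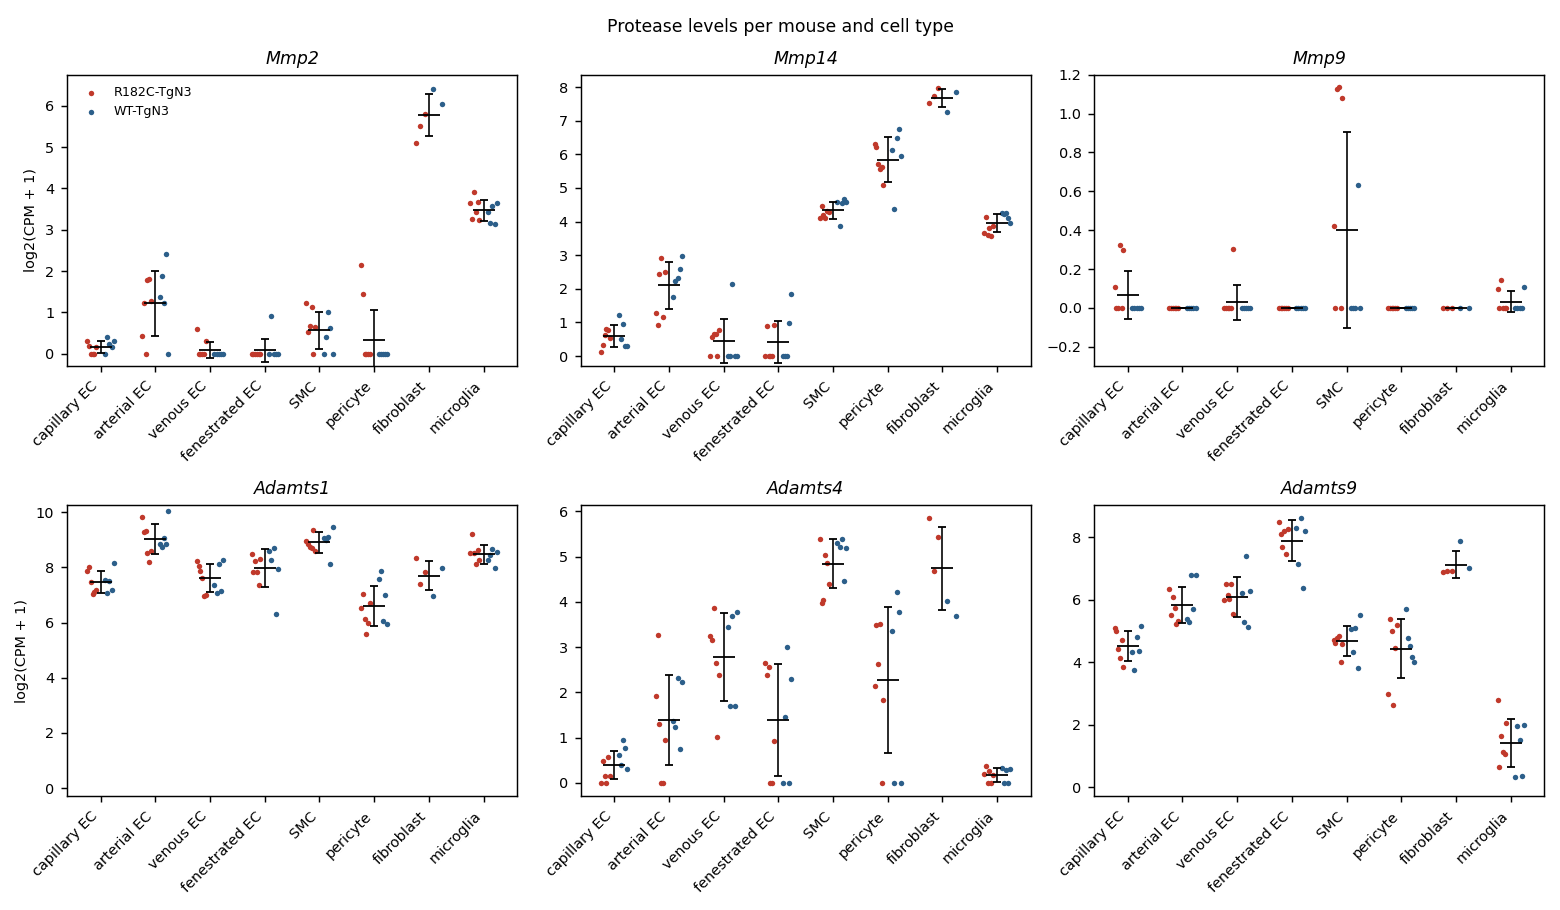
Level of each protease on the log2(CPM + 1) scale (y, with its own range in each panel) by cell type (x), 1 point per mouse, red for R182C-TgN3 and blue for WT-TgN3, with a black bar and whiskers for the mean and SD of that scale over all mice with at least 10 cells (11, fibroblasts 5). Mmp2 and Mmp14 are highest in fibroblasts, Mmp9 is near 0 in all types, Adamts1 is present in each type, and Adamts9 is highest in fenestrated EC.

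In all, 19 of the 70 neighbour pairs passed the threshold, and 15 of the 70 involved fibroblasts and could not. SMC and fibroblasts each held 7 of the 10 members at 10 CPM or more, pericytes and microglia 5, arterial and venous EC 4, and capillary and fenestrated EC 3. Across the 8 type means, the pair of members with the most alike pattern was Timp3 and Adamts9 (r = 0.805), followed by Mmp2 and Mmp14 (r = 0.721). Timp2 and Timp3 had r = -0.143. These are correlations over 8 cell types that share libraries, and they are given as a description.

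Among 11178 genes that reached 10 CPM in at least 1 type, the genes most like Timp3 over the 8 means were Slc48a1 (r = 0.998), Mrpl33 (r = 0.979) and Syn3 (r = 0.960). Slc48a1 transports haem and Mrpl33 belongs to the mitochondrial ribosome. Syn3 is the gene that contains Timp3 on the other strand, and it had 161 CPM in fenestrated EC, 112 CPM in arterial EC and 2.64 CPM in microglia. Syn1 and Syn2, which contain Timp1 and Timp4, did not pass 4.11 and 5.85 CPM in any type. How the counts treated strand and introns is not given in the sources used here, so reads of Timp3 and of Syn3 may not be told apart. The genes most like Timp2 were Cd82 (r = 0.963), Hebp1 (r = 0.946) and Khdrbs3 (r = 0.942), and those most like Timp4 were Slc4a8 (r = 0.984), Carns1 (r = 0.973) and Kmt5a (r = 0.971). For Mmp2 they were Serpinf1 (r = 0.998), Smco3 (r = 0.983) and Hist1h2ap (r = 0.963), of which Serpinf1 encodes a secreted serpin. For Mmp14 they were Mmgt2 (r = 0.986), Slc39a13 (r = 0.982) and P3h3 (r = 0.973), of which P3h3 encodes a collagen-modifying enzyme. Adamts1 was matched less closely, by Slc45a4 (r = 0.935), S100a4 (r = 0.889) and Btbd6 (r = 0.876). Adamts4 was followed by Fuom (r = 0.967), Olfm1 (r = 0.964) and Ampd2 (r = 0.958), and Adamts9 by Eif4ebp3 (r = 0.979), Rara (r = 0.975) and Prx (r = 0.965), of which Rara is a retinoic acid receptor.

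Related genes were taken from 5 lists of 68 genes: other MMPs, other ADAMTS enzymes, ADAM sheddases, regulators of proteolysis at the cell surface, and secreted substrates and Timp3 binding partners. Of the other MMPs, 7 of 18 reached 10 CPM in some type, among them the membrane protease Mmp15 in fenestrated EC (97.4 ± 19.9 CPM) and Mmp28 in capillary EC (57.1 ± 8.69 CPM). Of the other ADAMTS genes, 10 of 16 did, among them Adamts12 in fibroblasts (547 ± 226 CPM) and Adamts5 in SMC (87.6 ± 20.6 CPM). Of 9 ADAM sheddases, 6 did, including Adam12 in fibroblasts (1805 ± 400.4 CPM), Adam10 in capillary EC (284 ± 35.5 CPM) and Adam17, a target of Timp3, in microglia (125 ± 10.7 CPM). The 2 listed genes of highest CPM in each type were Bsg, an inducer of MMPs, with Spock2 in capillary and arterial EC, and Bsg with the cystatin Cst3 in venous EC. In fenestrated EC they were the basement membrane collagens Col4a1 (1443 ± 256 CPM) and Col4a2, in SMC Sparcl1 and Cst3, in pericytes Vtn and Bsg, in fibroblasts Adam12 and Cst3, and in microglia Cst3 (19202 ± 2773 CPM) and Sparc. Spock2 and Vtn were themselves used as markers of capillary EC and of pericytes.

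Next, R182C-TgN3 mice were compared with WT-TgN3 mice within each cell type. No member passed the threshold in any of the 9 comparisons (the 8 types and all EC pooled). Of 90 pairs of a member and a type, 47 passed the filter on low counts, 0 had an adjusted p under 0.05 and 3 had an unadjusted p under 0.05 (edgeR). DESeq2 gave 0 and 2. Of all genes tested by edgeR, 2.17% had an unadjusted p under 0.05, with 1.06% in microglia, 4.22% in pericytes and 3.66% in fibroblasts. The adjusted p was at least 0.999 in each pair. The shares of all tested genes past the threshold were 0.0104% in SMC and 0.043% in pericytes, and 0% in capillary, arterial, venous and fenestrated EC, fibroblasts, microglia and all EC, so a count of 0 members is near this background. The 1 gene called in SMC was the transgene NOTCH3, which was also 1 of the 2 called in pericytes. Members tested per type numbered 3 in fenestrated EC and pericytes, 4 in capillary and arterial EC, 5 in venous EC, 6 in microglia, 7 in SMC and fibroblasts and 8 in all EC. The median log2 difference over the tested members ran from -0.24 in pericytes to 0.17 in microglia, and over all tested genes from 0.00167 to 0.0122.

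The levels of Timp3 overlapped between the genotypes in all 8 types. In SMC, R182C-TgN3 mice had a lowest, median and highest level of 1160.0, 1343 and 1776 CPM, and WT-TgN3 mice 1 to 5 had 1411, 1278, 1336, 1258 and 1415 CPM. The R182C-TgN3 values reached both below and above those of WT-TgN3, with R182C-TgN3 5 the highest. The log2 difference, R182C-TgN3 minus WT-TgN3, was 0.08 ± 0.12 (SE), and the 95% interval of the ratio was 0.885 to 1.26. In arterial EC it was 0.03 ± 0.13 (SE) with an interval of 0.851 to 1.23, and in fenestrated EC 0.11 ± 0.15 (SE) with an interval of 0.87 to 1.35. The ratio was less well bounded in pericytes, at 0.551 to 1.46, in fibroblasts, at 0.598 to 1.52, and in microglia, at 0.79 to 1.73. Timp2 differed by -0.12 ± 0.10 (SE) on the log2 scale in SMC (ratio 0.801 to 1.06) and by 0.14 ± 0.10 (SE) in microglia (ratio 0.947 to 1.28). Timp4 in SMC had a ratio between 0.57 and 1.86.

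**Figure D3:**
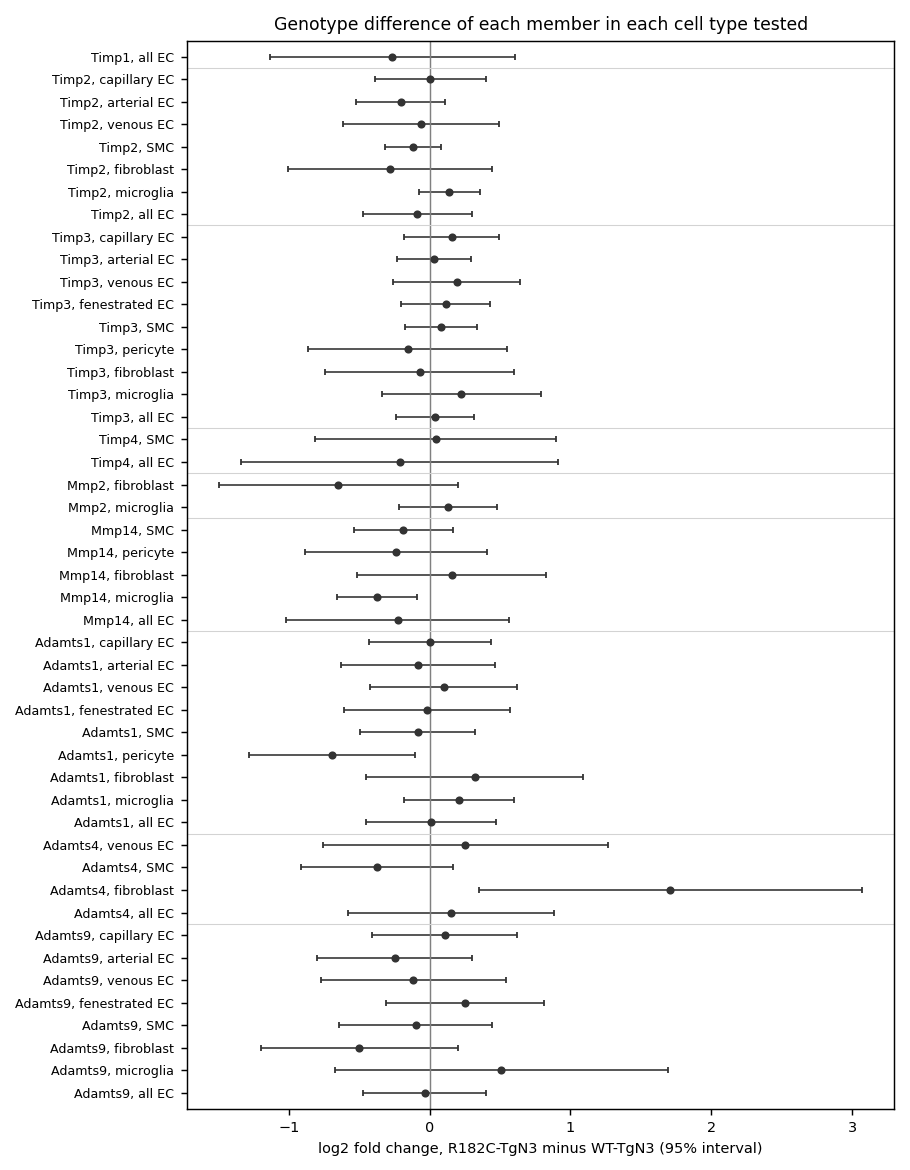
Log2 difference between R182C-TgN3 and WT-TgN3 mice (x) for each of the 47 pairs of a member and a cell type that passed the filter on low counts (y), as the edgeR estimate with its 95% interval before adjustment; a value above 0 is higher in R182C-TgN3. The intervals include 0 in all pairs but 3, Mmp14 in microglia, Adamts1 in pericytes and Adamts4 in fibroblasts, and none of these passed the adjusted threshold.

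The 3 pairs with an unadjusted p under 0.05 were Mmp14 in microglia, Adamts1 in pericytes and Adamts4 in fibroblasts. Mmp14 in microglia had a lowest, median and highest level of 10.97, 12.3 and 16.6 CPM in R182C-TgN3 mice, and 18.2, 17.7, 18.2, 16.2 and 14.6 CPM in WT-TgN3 mice 1 to 5. R182C-TgN3 2 overlapped the WT-TgN3 range and the other 5 lay below it. The authors left 1 control sample, not named in their text, out of their microglial analysis because its microglia were strongly polarized. All 5 WT-TgN3 mice were kept here. The log2 difference was -0.37 ± 0.14 (SE) (edgeR unadjusted p = 0.0134, adjusted p = 1.00), with a ratio of 0.633 to 0.94. Fibroblast markers, which the gate used, summed to at most 2.20 CPM in any microglial pool. The part of fibroblast RNA was not tested.

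Adamts1 in pericytes had a lowest, median and highest level of 46.5, 80.8 and 129 CPM in R182C-TgN3 mice, and 190.2, 232, 66.2, 127 and 60.7 CPM in WT-TgN3 mice 1 to 5. The groups overlapped widely, and the high values were those of WT-TgN3 1 and 2. The log2 difference was -0.69 ± 0.29 (SE) (edgeR unadjusted p = 0.0233, adjusted p = 1.00). It was -0.10 when pericytes were taken from Leiden clusters and -0.38 without WT-TgN3 2. The 8 SMC markers summed to 609.7 to 1035 CPM in R182C-TgN3 pericyte pools and to 896 to 1121 CPM in WT-TgN3 pools, with 1 of 8 at 0. Endothelial markers summed to 3066 to 7978 CPM in R182C-TgN3 pools and to 3979 to 7129 CPM in WT-TgN3 pools. The part of either in the difference was not tested. Adamts4 in fibroblasts had 56.8, 24.9 and 42.0 CPM in R182C-TgN3 2, 5 and 6 and 15.3 and 12.0 CPM in WT-TgN3 1 and 4, from 42 UMIs in all. The groups did not overlap, and the log2 difference was 1.71 ± 0.64 (SE) (edgeR unadjusted p = 0.0169, adjusted p = 1.00). The 18 dissociation stress genes summed to 9352 to 21495 CPM in the 3 R182C-TgN3 pools and to 8449 and 13438 CPM in the 2 WT-TgN3 pools, and their part in the difference was not tested. In SMC the log2 difference of Adamts4 was -0.38 ± 0.25 (SE), with an adjusted p of 1.00 (edgeR).

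Adamts9 in fibroblasts was the other pair beside Mmp2 and Adamts4 there whose groups did not overlap. These were 3 of the 7 members with a mean of at least 10 CPM in fibroblasts, where the groups of 17.5% of all such genes did not overlap with 3 mice against 2. In the other 7 types the groups of 0 members did so, against 0.169% of such genes in capillary EC, 0.228% in arterial EC, 0.25% in venous EC, 0.204% in fenestrated EC, 0.204% in SMC, 0.467% in pericytes and 0.049% in microglia. Adamts9 in fibroblasts had 117 to 119 CPM in the 3 R182C-TgN3 pools and 129 and 237 CPM in the 2 WT-TgN3 pools, a log2 difference of -0.50 ± 0.33 (SE) (edgeR unadjusted p = 0.151).

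The 68 related genes gave no call either. In 243 tests of a listed gene in a type, 0 passed the adjusted threshold and 9 had an unadjusted p under 0.05, which is 3.70% against 2.17% of all genes tested (edgeR). The Timp3 target Adam17 and the other sheddases had medians between -0.17 and 0.04 on the log2 scale over the 9 comparisons. The other MMPs ran from -0.28 to 0.31 with 1 to 7 genes tested, and the other ADAMTS genes, of which 0 were tested in pericytes, from -0.18 to 0.10. The regulators ran from -0.01 to 0.31 and the substrates and partners from -0.02 to 0.30. The stress genes were called in 0 of 162 tests.

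Whether the genotype difference changed with age was tested by a genotype by age term in 8 comparisons, fibroblasts left out for want of mice. Of 40 pairs of a member and a type, 0 had an adjusted p under 0.05 and 3 an unadjusted p under 0.05 (edgeR), while 0% of all genes tested passed in each comparison. The 3 were Adamts1 in fenestrated EC and Adamts4 in venous EC and in all EC. The all EC pool contains the venous EC, so the pairs of Adamts4 share cells. Of all genes, 321 of 8354 had an unadjusted p under 0.05 in fenestrated EC, 358 of 9949 in venous EC and 257 of 12991 in all EC. At 6 months, Adamts1 in fenestrated EC was 229, 162 and 312 CPM in R182C-TgN3 4 to 6 and 388, 306 and 417 CPM in WT-TgN3 1 to 3. At 9 months it was 358, 226 and 296 CPM in R182C-TgN3 1 to 3 and 78.0 and 242 CPM in WT-TgN3 4 and 5. The genotypes overlapped at both ages. The 18 stress genes summed to 10870.1 CPM in the fenestrated pool of WT-TgN3 4, which had the lowest Adamts1, and to 12515 to 20543 CPM in the other 10, and their part in the change was not tested. The log2 genotype difference at 9 months minus that at 6 months was 1.499 ± 0.45 (SE, edgeR unadjusted p = 0.0033, adjusted p = 0.988). Without WT-TgN3 5 it was 2.53 ± 0.42 (edgeR adjusted p = 0.0129), and without WT-TgN3 4 it was 0.93 ± 0.38 (edgeR adjusted p = 1.00). Each of these fits left 1 WT-TgN3 mouse of 9 months, which is assumed to vary like the mice of the other groups. They called 6 of 7961 and 10 of 7964 genes, against 0 of 8354 with all mice. Timp3 in fenestrated EC had 0.51 ± 0.29 (SE, unadjusted p = 0.0884).

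Adamts1 in arterial EC varied between mice. The 3 R182C-TgN3 mice of 9 months had 909.6, 620.3 and 646 CPM and the 3 of 6 months 363, 294 and 386 CPM. WT-TgN3 4 and 5, of 9 months, had 455 and 1055 CPM, and WT-TgN3 1 to 3, of 6 months, had 465, 427 and 535 CPM. Within R182C-TgN3 the ages did not overlap, and within WT-TgN3 they did. The summed level of the 18 dissociation stress genes, immediate-early and heat-shock genes, moved with Adamts1. It was highest in WT-TgN3 5, at 33619.8 CPM, and lowest in R182C-TgN3 5, at 12976 CPM, which were also the mice with the highest and the lowest Adamts1. Across the 11 mice, on log2 scales, Pearson r was 0.84 (permutation p = 0.00119, adjusted over 4 cell types 0.00292) and Spearman rho 0.75 (permutation p = 0.0107, adjusted 0.0215). Without the 2 mice farthest from the median stress level r was 0.61, and within the 6 mice of 6 months 0.55. In the 5 mice of 9 months, given without a test, it was 0.84. Batches held at most 4 mice, and no value was taken within them.

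In capillary EC the same relation gave r = 0.84 (permutation p = 0.00146, adjusted 0.00292) and rho = 0.75 (permutation p = 0.00991, adjusted 0.0215). It gave r = 0.66 without the 2 farthest mice, 0.36 at 6 months and 0.91 at 9 months. In SMC r was 0.55 (permutation p = 0.0859, adjusted 0.114) with rho 0.54 (permutation p = 0.0933, adjusted 0.124), 0.42 without the 2 farthest mice, -0.17 at 6 months and 0.87 at 9 months. In microglia r was 0.38 (permutation p = 0.26, adjusted 0.26) with rho 0.33 (permutation p = 0.328, adjusted 0.328), 0.58 without the 2 farthest mice, -0.17 at 6 months and 0.55 at 9 months. In all 4 types r was lower in the 6 mice of 6 months than over both ages, and in the 5 mice of 9 months it was close to or above that over both ages. The difference between the ages was not tested, and the part of stress in the Adamts1 level was not tested.

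**Figure D4:**
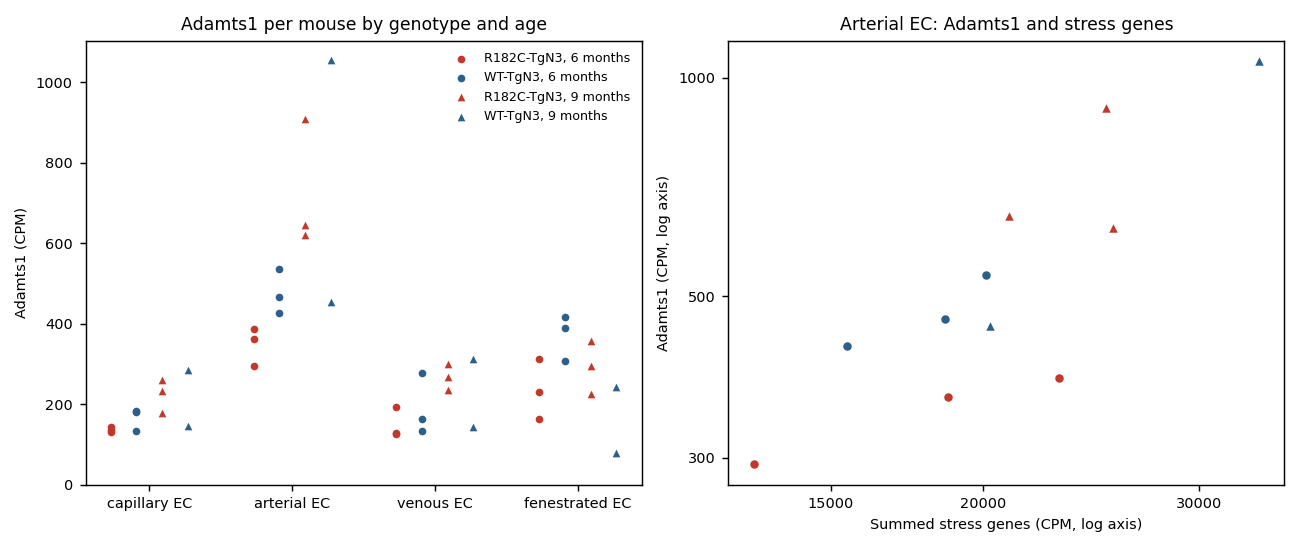
Left, Adamts1 in CPM (y, linear from 0) for each mouse in the 4 EC types (x), red for R182C-TgN3, blue for WT-TgN3, circles for 6 and triangles for 9 months. Right, Adamts1 against the summed stress genes in arterial EC, 1 point per mouse with the same colours and shapes, both axes in CPM on log scales; the 3 R182C-TgN3 mice of 9 months and WT-TgN3 5 hold the high Adamts1 values.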

How the data were processed

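Reads were aligned by the authors with Cell Ranger 7.0.0, per the submitters' processing notes, to the mm10 transcriptome with human NOTCH3 added, and the deposited matrices hold raw UMI counts per gene and barcode, without normalization. Cells were kept from 500 detected genes upward and up to 10% mitochondrial UMIs. A cell took a class when at least 37.5% of its markers exceeded their share of the library's UMIs and no other class scored over 50% as high. Cells with markers of 2 classes (3558) were left unnamed in place of a doublet caller, 2634 cells had too few markers, and 3348 of the gated cells lay near the minimum. The broad class was the same as by Leiden clusters in 99.5% of the 53381 cells named by both. The clusters were made without the members but named by the same markers, so this agreement is partly built in. EC subtypes were not compared in this way. Counts were summed per mouse and type (at least 10 cells) and tested with edgeR 4.0.16 (filterByExpr, TMM, quasi-likelihood test, Benjamini-Hochberg over all genes, threshold 0.05), without ribosomal, mitochondrial, Gm and Rik genes. R 4.3.3, DESeq2 1.42.0 and Python 3.11.15 with numpy 2.4.6, scipy 1.17.1, leidenalg 0.10.2 and igraph 0.11.9 were used, and the fit was tested on simulated data.

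The p-values measure the spread between mice. Thinned shares are the expected shares of cells with a UMI in 2000 drawn UMIs, leaving out shallower cells. Limits for a count of 0 are 3 counts of the summed pool and cover counting error only. Correlations used 100000 permutations. Gene positions are from GENCODE vM21, and promoters from RefSeq on GRCm38.p6. The text names the 10 members, listed genes past the threshold, the 2 listed genes of highest CPM per type, the 3 genes most like each member that reached 10 CPM, and NOTCH3 and Notch3; the other listed genes, the synapsin genes and the marker values were chosen after their values were seen. The members and lists were chosen with earlier results of these data known. Alternatives were other gates, filters, covariates and tools and each mouse left out; leaving out shared barcodes was added after seeing the data.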

Additional observations from a re-analysis of the deposited data

Results flagged for a closer look

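In 6 of 62 groups of 5 or 6 mice, 1 mouse stood apart from the rest of its genotype by Dixon's criterion, where chance gives about 1 in 20. WT-TgN3 5 had 1055 CPM of Adamts1 in arterial EC, and the next WT-TgN3 mouse had 535. R182C-TgN3 2 had 598 CPM of Adamts1 in microglia, and the next R182C-TgN3 mouse had 397. R182C-TgN3 3, the mouse alone in its batch, had 3884 CPM of Timp3 in fenestrated EC, and the next had 2759.9. R182C-TgN3 5 had 104 CPM of Timp3 in pericytes, from 31 cells, and the next above it had 406. WT-TgN3 2 had 13.6 CPM of Mmp14 in SMC, and the next above it had 22.6. WT-TgN3 4 had 21.1 CPM of Adamts4 in SMC, and the next above it had 35.8.

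Mmp9 and Timp4 were higher in cells outside the 8 compared types, pooled over mice, with exact Poisson intervals that cover counting error only. Mmp9 had 65.9 CPM (95% interval 32.9 to 118) in 16 neutrophils or monocytes, from 11 UMIs, and 25.9 CPM (13.8 to 44.2) in 107 perivascular macrophages, from 13 UMIs. Timp4 had 209.9 CPM (174 to 251) in 65 cells gated as astrocytes, from 120 UMIs, and 201 CPM (96.6 to 371) in 10 cells gated as oligodendrocytes, from 10 UMIs.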

How the results depend on the processing

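No member was called in any of the 9 comparisons under any of the alternatives that could be fitted, which included DESeq2, other gates and filters, batch, sex or age as a covariate, the replicate block and each mouse left out. Batch as a covariate changed the sign of 10 of 47 differences. The stricter gate changed 7 of the 37 that could be fitted, and Leiden clusters 9 of 45. Leaving out 1 mouse changed the sign of 1 to 11, with 40 to 47 fitted. Mmp14 in microglia, Adamts1 in pericytes and Adamts4 in fibroblasts kept their sign wherever they were fitted. The replicate block, which set mice of like age and replicate number against each other in 5 pairs, could not be fitted in fibroblasts, changed the sign of 11 of 40 differences and called 0 members. Deviations of same-numbered mice correlated at 0.057 to 0.380 in microglia, -0.152 to 0.288 in SMC and -0.113 to 0.030 in pericytes. In capillary EC they correlated at -0.072 to 0.357, and in all EC at -0.094 to 0.351. No value was taken for differently numbered mice, so whether the numbers pair the mice was not settled. The main fit did not pair them. The genotype by age term called 0 to 1 members when each mouse was left out; the 1 was Adamts1 in fenestrated EC without WT-TgN3 5, a fit with 1 WT-TgN3 mouse of 9 months that called 6 of 7961 genes.

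The stricter gate gave 29.7 CPM for Mmp2 in fibroblasts and 7.42 CPM for Adamts4. It left too few mice with enough fibroblasts for a genotype fit, so the mice changed as well as the cells. Leiden clusters lowered Mmp14 in fibroblasts to 148 CPM. The cause of these shifts was not tested. The other mean levels in the highest type moved by less than 1 SD over mice. Leaving out each mouse gave 2563 to 2736 CPM for Timp3, 300.01 to 309 for Timp2, 13.1 to 16.5 for Timp4, 3.23 to 7.26 for Timp1, 510.1 to 586 for Adamts1, 244 to 276 for Adamts9, 23.5 to 34.7 for Adamts4, 195 to 219 for Mmp14, 49.4 to 62.1 for Mmp2 and 0.318 to 0.439 for Mmp9. With log2(CPM + 10), 19 neighbour pairs passed, and 0 calls changed. Without thinning, the share of cells with a UMI went, by construction, from 42.9% to 68.1% for Timp2 in microglia, 96.7% to 98.9% for Timp3 and 28.2% to 47.9% for Adamts9 in fenestrated EC, 2.31% to 6.70% for Timp4 in SMC, 47.8% to 71.6% for Adamts1 in arterial EC, and 11.4% to 43.3% for Mmp2, 34.0% to 83.6% for Mmp14 and 4.34% to 19.99% for Adamts4 in fibroblasts. Over all genes, calls in pericytes numbered 2, and 44 with no filter on low counts, 3 with cells of 2 classes kept, and 1 under DESeq2, the block, the stricter gate or Leiden clusters. In fibroblasts they numbered 0, and 40 with no filter, 32 with batch, 4 with sex or age as a covariate, 1 with DESeq2 size factors or the higher mitochondrial limit, and up to 10 with 1 mouse left out. In capillary EC they numbered 0, and 1 with age as a covariate or DESeq2. Depth limits Timp1, Timp4, Mmp2 and Mmp9, which mostly fell under the filter on low counts, and all fibroblast and pericyte values.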
